A study of Mus musculus with 8 samples.

Results

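The comparison described here is Cdx2 null mutant against wild type mouse embryos at 4/5 somites, on the 4 arrays of that stage out of 8 in the series. Cdx2 null and wild type embryos shared the strain C57Bl6J/CBA. The posterior part was dissected between the boundary of the last somite and the base of the allantois, and 20 embryos of each genotype were used at this stage. No source used here describes the null allele or how embryos without Cdx2 were obtained. The 4 arrays carried the same pair of pools, 1 per genotype. Array 1 (bio1) and array 3 (tech1) had the null pool in the dye Cy3, and array 2 and array 4, their dye swaps, had it in Cy5. Every value is a log2 ratio of null over wild type. Every standard deviation (SD) is that of 4 arrays and is technical, because no second pool was measured, so differences are described by size with no p-value.

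Cdx2, Cdx1 and Cdx4 encode homeodomain transcription factors of the caudal embryo. They act with posterior Hox genes and with Wnt and FGF signals to keep progenitors at the tail end supplying new trunk tissue, and embryos with reduced Cdx function end their axis early. Cdx2 is also active in trophoblast and in the hindgut endoderm. The study's title names the Cdx and Hox genes together with Wnt signalling, in the caudal neural tube and the derivatives of the cloaca.

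In all, 41174 non-control probes were on each array, and 21126 of them were well above background in 1 genotype on at least 3 of the 4 arrays. With the brightest probe standing for each gene, 14782 genes were measured. The median log2 ratio over all genes was 0.00, the SD over genes was 0.23, and the median SD of 4 arrays was 0.12. A gene is called higher or lower here when its mean ratio reached 1.5-fold (0.58 on the log2 scale) with 1 sign on all 4 arrays. By that rule 207 genes were higher in the null pool (1.4% of those measured) and 152 were lower (1.03%). At 2-fold, 34 genes were higher (0.23%) and 26 were lower (0.176%). Over probes rather than genes, 235 were 1.5-fold higher (1.11%) and 209 were lower (0.989%). In a dissected piece of tissue, fewer cells of a type and less RNA per cell cannot be told apart. The gene lists used below were chosen with earlier results of these data known. Counts by list therefore describe the members and are no test of a tissue or pathway.

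The sequences below identify the probes behind the ratios that the comparison turns on. Each is the first 30 bases of a 60-base probe, 5′ to 3′ as the array files list it, with positions on build mm9. The exon or untranslated region that each probe lies in was not analysed here. Cdx2 is the mutated gene, Nepn and Hoxa7 had the lowest ratios, Tbx1 the highest, and Cxcl12 and Hoxb9 each have a pair of probes that passed the filter.
Cdx2, chr5:148112577-148112606, minus strand: gccttttaaaaagccttcttgatccatggg
Nepn, chr10:52124110-52124139, plus strand: catcagactcaacatggatgacgacgatga
Hoxa7, chr6:52165656-52165685, minus strand: gacagttggaaaagcgtctttaagagactc
Tbx1, chr16:18581846-18581875, minus strand: gtgtagatatgtgtagatactgtagatact
Cxcl12, brighter probe, chr6:117131227-117131256, plus strand: aggagaaggcagcttcctatatgcagcgtg
Cxcl12, other probe, chr6:117124474-117124503, plus strand: gaattaatcataaacggaagtttaaatgag
Hoxb9, brighter probe, chr11:96137065-96137094, plus strand: tcctatcctcatttgacagaatgtaacttt
Hoxb9, other probe, chr11:96137748-96137777, plus strand: gcttgtgttttgtgatttctttggcagtga

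The mutated gene came first. Cdx2 read -1.34, -1.10, -1.33 and -1.15 on arrays 1 to 4, a mean of -1.23 ± 0.12 (SD), or 2.35-fold less signal in the null pool. Its probe stayed well above background in the null pool on all 4 arrays. No source used here says which part of the gene the null allele lacks, so this value is no check of the genotype labels. Cdx4, the paralogue on chromosome X, read -1.09, -0.66, -1.15 and -0.85 (mean -0.94 ± 0.23). Cdx1 read -0.27, -0.33, -0.42 and -0.41 (mean -0.36 ± 0.07), below zero on all 4 arrays but short of 1.5-fold. Thus 2 of the 3 Cdx genes passed the size rule, both of them lower.

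Genes near Cdx2 on chromosome 5 did not share its ratio. The measured genes nearest to it on one side were Gtf3a (-0.29 ± 0.06), Mtif3 (-0.26 ± 0.18), Lnx2 (-0.13 ± 0.08), Polr1d (-0.15 ± 0.15) and Gsx1 (-0.11 ± 0.11), and none was called. On the other side were Pan3 (0.29 ± 0.09), Flt1 (0.27 ± 0.09), Pomp (0.12 ± 0.13), Slc46a3 (0.47 ± 0.09) and Slc7a1 (0.16 ± 0.21), and none was called. Within 5 Mb of the Cdx2 probe 65 other genes were measured, with ratios from -0.54 to 0.68 and a median of 0.04. Among them 1 was called, Tmem130 (0.68), which was higher and was named after its value was seen.

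**Figure D1:**
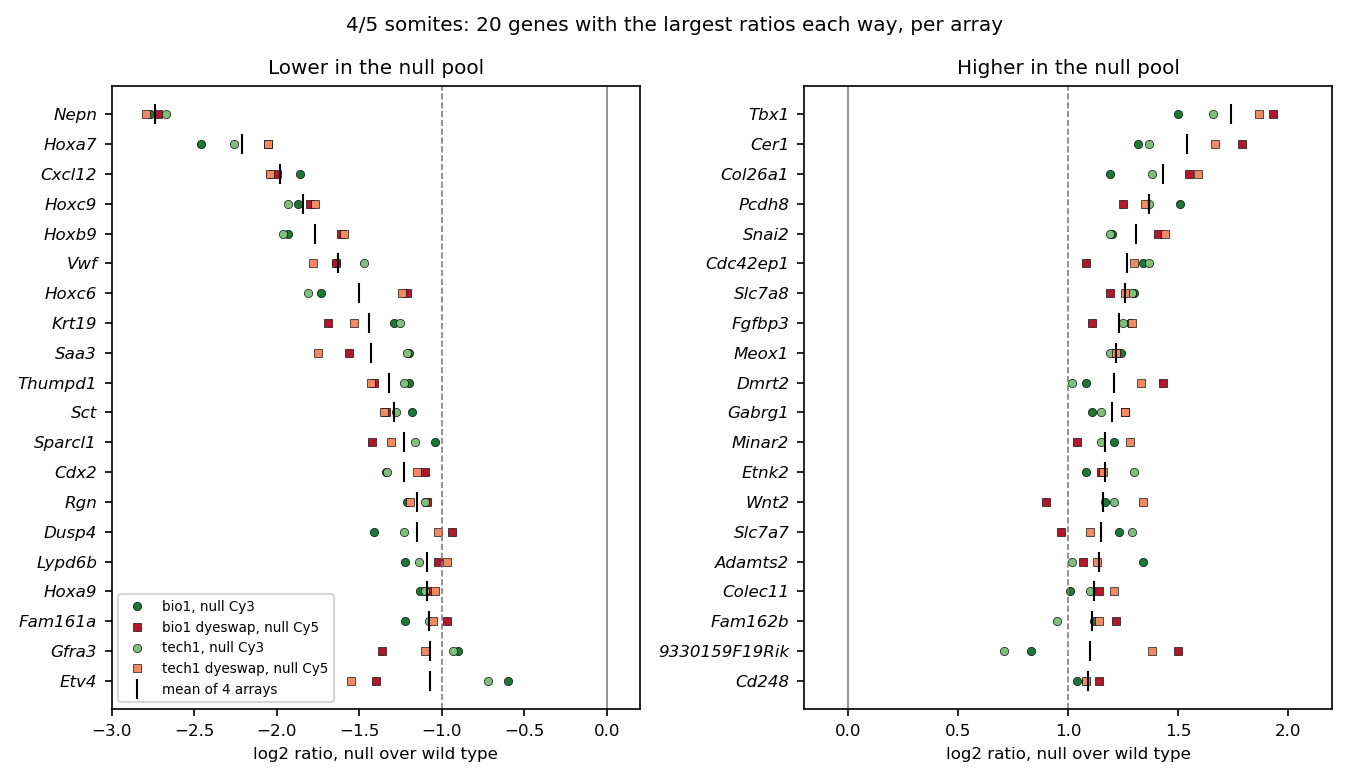
Log2 ratios of null over wild type at 4/5 somites (x axis) for the 20 genes with a symbol and the largest mean ratios each way (y axis), with 1 point per array and a bar at the mean of 4 arrays; circles have the null pool in Cy3, squares in Cy5, and the dashed line marks 2-fold. Nepn lies near -2.74 on every array, while Etv4 reads -0.60 and -0.72 in circles and -1.40 and -1.55 in squares.

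The largest difference of the comparison was in Nepn, the gene of nephrocan, a secreted leucine-rich repeat protein made in gut endoderm. Nepn read -2.77, -2.72, -2.67 and -2.79 on the 4 arrays (mean -2.74 ± 0.06), 6.67-fold less signal in the null pool, and its arrays lay closer together than those of most genes. Next in order came Hoxa7 at -2.21 ± 0.20. Cxcl12, a chemokine gene whose product guides migrating cells, read -1.86, -2.0, -2.04 and -2.04 (mean -1.98 ± 0.08). Its other probe, upstream of this one on the plus strand, had a measured value of -0.59 ± 0.13, but the null pool was not well above background there on any array, so the sizes at the 2 probes cannot be compared. Vwf, which encodes a clotting factor of endothelial cells, read -1.64, -1.64, -1.47 and -1.78 (mean -1.63 ± 0.13). Its other probe had a measured value of -0.94 ± 0.20, also with the null pool not well above background on any array. Where these probes lie within the transcripts was not analysed here.

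Other non-Hox genes at least 2-fold lower included epithelial and secreted products. Krt19, a keratin of simple epithelia, was at -1.44 ± 0.21. Sct, which encodes the gut hormone secretin, was at -1.29 ± 0.08. Sparcl1, a matricellular protein gene, was at -1.23 ± 0.17 with a second probe at -1.34 ± 0.13. Saa3, an acute phase gene, read -1.20, -1.56, -1.21 and -1.75 but in the null pool its signal was under the limit for well above background on every array. Its mean channel values gave a ratio of at least 2.45-fold lower in the null pool, counted against the lowest signal well above background, after loess and between-array scaling. Each dye orientation had 2 arrays behind this bound.

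The remaining named genes at least 2-fold lower had mixed roles. Thumpd1, which acts in tRNA modification, was at -1.32 ± 0.12. Rgn, a calcium-binding protein gene, was at -1.15 ± 0.06, Lypd6b at -1.09 ± 0.11 and Fam161a, a gene of a ciliary and centrosomal protein, at -1.08 ± 0.10. Gfra3, a receptor of the GDNF family, was at -1.07 ± 0.21. The genes at least 2-fold lower that are not among the 20 largest were Serpinb1a (-1.06), Lefty1 (-1.05), Prpf19 (-1.05), Hoxd4 (-1.03), Hspb8 (-1.03) and Greb1 (-1.02). Defa31 (-1.0), Defa20 (-0.99), Defa3 (-0.93) and Defa5 (-0.75), at least 1.5-fold lower, belong to the alpha-defensin family, whose members are near-identical copies, so their probes may read 1 transcript. The Defa genes, Serpinb1a and Hspb8 were named after their values were seen.

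Tbx1, a T-box transcription factor gene of the pharyngeal region, had the highest ratio. It read 1.5, 1.93, 1.66 and 1.87 (mean 1.74 ± 0.20), 3.34-fold more signal in the null pool. Cer1, which encodes a secreted antagonist of Nodal, BMP and Wnt ligands, read 1.32, 1.79, 1.37 and 1.67 (mean 1.54 ± 0.23). Col26a1, a collagen gene, read 1.19, 1.55, 1.38 and 1.59 (mean 1.43 ± 0.19). For all 3 genes both Cy5 arrays read higher than both Cy3 arrays, and every array was above 2-fold. Pcdh8, the paraxial protocadherin of forming somites, read 1.51, 1.25, 1.37 and 1.35 (mean 1.37 ± 0.11). Snai2, a zinc finger repressor of epithelial genes, read 1.20, 1.41, 1.19 and 1.44 (mean 1.31 ± 0.13).

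Several of the other genes at least 2-fold higher encode membrane or matrix proteins. The amino acid transporter genes Slc7a8 and Slc7a7 were at 1.26 ± 0.05 and 1.15 ± 0.14. Fgfbp3, whose product binds FGF ligands, was at 1.23 ± 0.08, Gabrg1, a GABA receptor subunit gene, at 1.20 ± 0.08 and Wnt2, a secreted Wnt ligand gene, at 1.16 ± 0.19. Adamts2, a procollagen protease gene, was at 1.14 ± 0.14, with a dimmer probe at 0.51 ± 0.21, where the wild type pool was well above background on 2 of the 4 arrays. Cdc42ep1, an effector of the GTPase Cdc42, was at 1.27 ± 0.13, with a dimmer probe at 0.38 ± 0.18. Etnk2 (1.17 ± 0.09), Minar2 (1.17 ± 0.10), Colec11 (1.12 ± 0.08), Fam162b (1.11 ± 0.11), 9330159F19Rik (1.1 ± 0.39) and Cd248 (1.09 ± 0.04) completed the 20 largest together with Meox1 and Dmrt2. For Minar2 and Dmrt2 the wild type pool was well above background on 3 of the 4 arrays.

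The Hox genes, which encode homeodomain factors that set position along the axis, are numbered from anterior (1) to posterior (13) within 4 clusters. By the same rule 1.03% of all measured genes were lower and 1.4% higher. Of the 12 measured genes of groups 5 to 9, 6 were at least 1.5-fold lower and 1 was higher, with a median of -0.63 against 0.00 over all genes. Of the 12 measured genes of groups 1 to 4, 1 was lower and none was higher, with a median of -0.18. Of groups 10 to 13 only 3 of 12 were measured, with a median of -0.48 and 1 of them lower. Hoxa6, Hoxc5 and Hoxc8 of groups 5 to 9, and 8 genes of groups 10 to 13, did not pass the filter on dim probes, and Hoxc11 had no probe. The counts of called genes therefore cover 27 Hox genes.

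**Figure D2:**
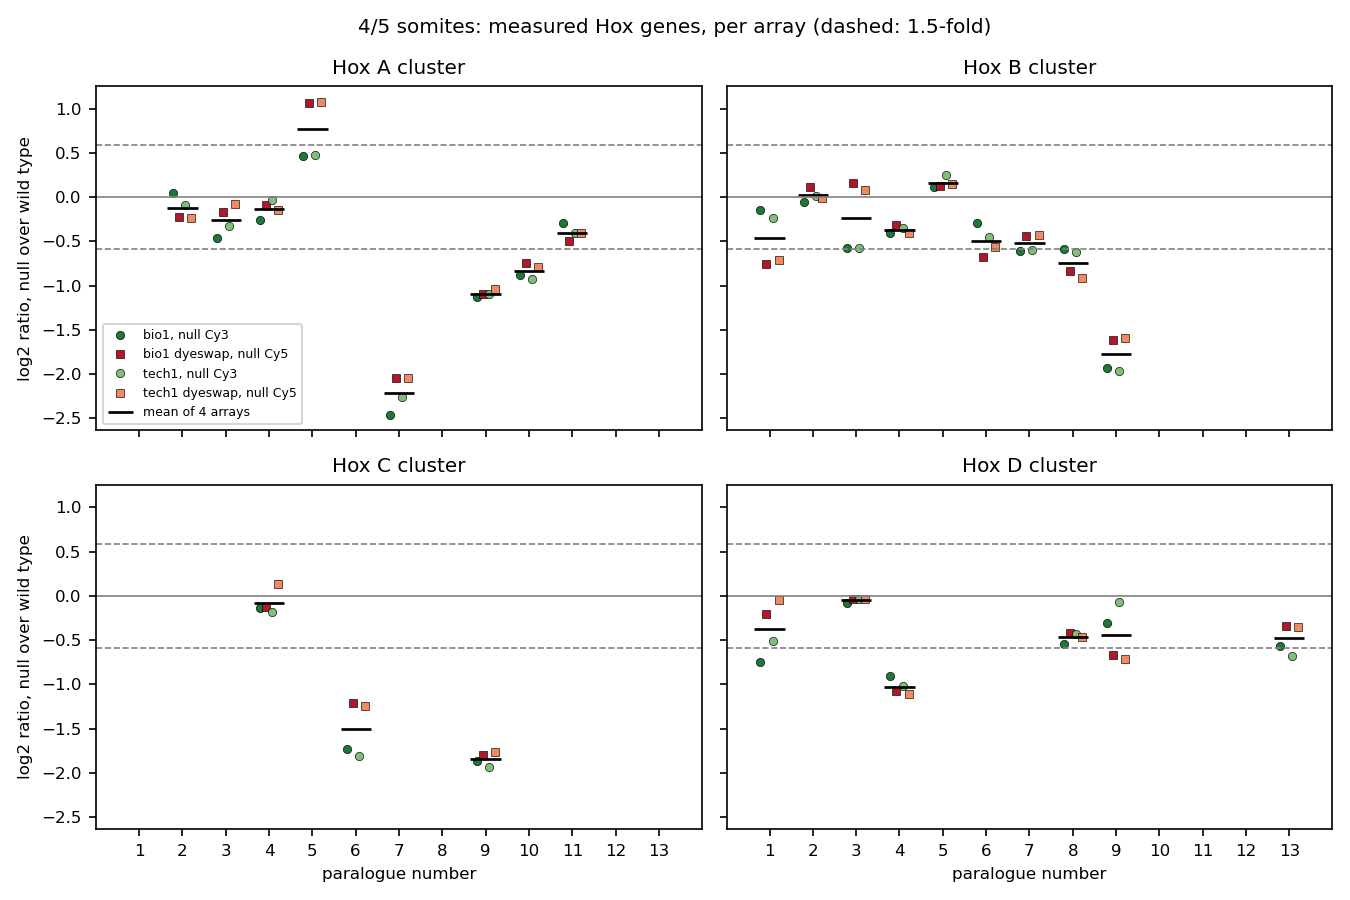
Log2 ratios of null over wild type (y axis) of the measured Hox genes described in the text, by cluster and paralogue number (x axis), with 1 point per array and a bar at the mean of 4 arrays; dashed lines mark 1.5-fold. Hoxa7, Hoxb9, Hoxc6 and Hoxc9 lie lowest, Hoxa5 is the only Hox gene shown that was called higher, and Hoxb3 has Cy3 and Cy5 arrays on opposite sides of 0.

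Within cluster A the order of ratios was uneven. Hoxa5 read 0.46, 1.06, 0.48 and 1.08 (mean 0.77 ± 0.34), higher on all 4 arrays but 1.5-fold higher only with Cy5 on the null pool. With median centring in place of loess it was not called. Hoxa7, whose probe starts 13577 bases from that of Hoxa5, read -2.46, -2.05, -2.26 and -2.05 (mean -2.21 ± 0.20), 4.61-fold lower. Hoxa9 (-1.09 ± 0.04) and Hoxa10 (-0.83 ± 0.08) were also called lower, and Hoxa11 (-0.40 ± 0.08) was below 0 on all 4 arrays without reaching 1.5-fold. Towards the anterior end, Hoxa2, Hoxa3 and Hoxa4 lay between -0.26 and -0.12.

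In cluster B, Hoxb9 read -1.93, -1.61, -1.96 and -1.59 (mean -1.77 ± 0.20), and its other probe read -1.86 ± 0.05. Hoxb8 (-0.74 ± 0.16) was the other gene called, though not without background correction (-0.49). Hoxb7 (-0.52 ± 0.10), Hoxb6 (-0.49 ± 0.17), Hoxb4 (-0.37 ± 0.05) and Hoxb1 (-0.46 ± 0.32) were below 0 on all 4 arrays but under 1.5-fold. The other Hoxb6 probe read -0.01 ± 0.12. Hoxb5 (0.16 ± 0.06) lay above 0 and Hoxb2 at 0.02 ± 0.07. Hoxb3 read -0.58 and -0.57 on the Cy3 arrays and 0.16 and 0.08 on the Cy5 arrays, so its brightest probe had no direction. The other Hoxb3 probe read -0.3 ± 0.06, below 0 on all 4 arrays.

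Cluster C had 3 measured genes, Hoxc9 (-1.84 ± 0.07), Hoxc6 (-1.50 ± 0.32) and Hoxc4 (-0.08 ± 0.14). Hoxc6 read -1.73 and -1.81 on the Cy3 arrays against -1.21 and -1.24 on the Cy5 arrays, and every array was past 2-fold. In cluster D the gene called was an anterior one, Hoxd4, at -0.91, -1.08, -1.02 and -1.11 (mean -1.03 ± 0.09). Hoxd1 (-0.38 ± 0.31), Hoxd8 (-0.47 ± 0.06) and Hoxd9 (-0.44 ± 0.30) were below 0 on all 4 arrays, and Hoxd3 was at -0.05 ± 0.02. Hoxd13 (-0.48 ± 0.17) had no array well above background in the null channel and was at least 1.3-fold lower there. Of the 9 genes of Hox cofactors, Meis2 (0.60 ± 0.11) was higher and Meis3 (-0.66 ± 0.20) lower, with a list median of -0.05.

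Some of the genes that were lower together have a promoter in the RefSeq table of build GRCm38.p6, and the 250 bases before the start site were searched there for TTTATG on both strands (CATAAA on the other), a form of the known Cdx recognition sequence, which posterior Hox proteins can also bind. No other motif was searched. The stretches of Nepn, Hoxa7 and Hoxd4 are shown because they are the genes at least 2-fold lower that held it and whose ratio did not depend on dye order. Capitals mark the motif, and each line runs 5′ to 3′ and ends at the last base before the start site.
Nepn, chr10:52391358-52391607, plus strand: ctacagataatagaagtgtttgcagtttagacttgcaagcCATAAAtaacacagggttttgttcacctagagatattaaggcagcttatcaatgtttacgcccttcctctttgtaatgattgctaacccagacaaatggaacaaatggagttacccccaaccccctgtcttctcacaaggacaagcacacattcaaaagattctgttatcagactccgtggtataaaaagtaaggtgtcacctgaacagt
Hoxa7, chr6:52218574-52218823, minus strand: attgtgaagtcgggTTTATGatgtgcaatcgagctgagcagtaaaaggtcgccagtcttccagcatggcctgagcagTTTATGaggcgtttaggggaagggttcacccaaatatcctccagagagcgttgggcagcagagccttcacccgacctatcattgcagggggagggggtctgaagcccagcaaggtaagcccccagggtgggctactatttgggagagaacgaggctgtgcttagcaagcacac
Hoxd4, chr2:74721728-74721977, plus strand: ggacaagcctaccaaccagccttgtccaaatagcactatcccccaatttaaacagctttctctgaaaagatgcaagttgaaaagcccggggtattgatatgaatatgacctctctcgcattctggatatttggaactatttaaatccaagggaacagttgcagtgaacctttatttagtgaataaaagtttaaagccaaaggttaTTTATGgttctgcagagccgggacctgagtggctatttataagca

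The motif began 210 bases before the start of Nepn, 236 and 173 bases before that of Hoxa7, and 45 bases before that of Hoxd4. Of the 26 genes at least 2-fold lower, 13 had a promoter in the table and 4 of these held the motif (Prpf19 was the fourth, in 1 of its promoters). Of the 34 genes at least 2-fold higher, 24 had a promoter and 1 held it, Itga8, named after its value was seen. At 1.5-fold, 20 of 105 lower genes with a promoter held the motif (19%), among them T, Msgn1, Wnt5b and Hoxb8, and 14 of 141 higher genes (9.93%), among them Fgfr2 and Krt23. Of 17 measured Hox genes with a promoter, 4 held the motif (23.5%). These were the lower genes Hoxa7, Hoxb8 and Hoxd4, and Hoxd3, which was not called (-0.05). Over all 10317 measured genes with a promoter the share was 7.82%, and over all 27025 genes of the table it was 12.4%. Counted over promoters, each of the same length, the share was 14.4% for the genes 1.5-fold lower and 7.81% for those 1.5-fold higher. It was 6.43% for all measured genes and 10.8% for the 32851 promoters of the table. The median share of A and T over these promoters was 42.8% for the genes 1.5-fold lower and also for those 1.5-fold higher, 50.6% for the genes 2-fold lower, 40.4% for all measured genes and 47.6% for the whole table. A match is a description of letters and not of a binding site.

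Genes of the growth zone itself were lower in part. The list of axial progenitor and primitive streak genes had 14 of 17 measured, so defining markers of this tissue were above background, among them T, Wnt3a, Fgf8, Sp5, Sp8 and Nkx1-2. Its median was -0.21, with 3 genes lower and none higher. Greb1, a gene of the axial progenitors, read -0.95, -1.03, -0.97 and -1.13 (mean -1.02 ± 0.08). Evx1, a homeobox gene of the primitive streak whose probe lies 86237 bases from that of Hoxa10, read -0.64, -0.71, -0.69 and -0.62 (mean -0.66 ± 0.04). T, the brachyury T-box gene of streak and notochord, read -0.66, -0.56, -0.68 and -0.55 (mean -0.61 ± 0.07), and was not called with median centring (values from -0.67 to -0.56 over the alternatives). Fgf8 (-0.45), Mixl1 (-0.48) and Sall4 (-0.43) lay below 0 without being called, and Wnt3a was at -0.08. The summed signal of the 14 genes was 27119 to 28261 in the null channel and 32810 to 35766 in the wild type channel over the 4 arrays. The ranges of the 2 channels were apart in every list that was summed, so this is not particular to these genes. The endothelial list, with a median log2 ratio of 0.02, had 6374 to 6720 against 7165 to 7517.

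In the list of presomitic mesoderm and somite boundary, 8 of 10 genes were measured, 2 were higher and 1 was lower. Msgn1, a bHLH gene of the presomitic mesoderm, read -0.83, -0.94, -0.71 and -0.81 (mean -0.82 ± 0.09), and Tbx6 was at -0.43. Pcdh8 at 1.37, and Mesp1 at 0.55, 0.94, 0.66 and 0.95 (mean 0.78 ± 0.20), both genes of the anterior presomitic mesoderm, were higher. The Mesp1 value had a second probe at 0.67 ± 0.16.

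The list of somite genes had the highest median of all lists, 0.84, with 5 of its 8 measured genes higher, none lower and all 8 above 0. Meox1, a homeobox gene of forming somites, read 1.24, 1.22, 1.19 and 1.22 (mean 1.22 ± 0.02), and its other probe 0.85 ± 0.19. Dmrt2, of the dermomyotome, was at 1.21 ± 0.19 and Tcf15 (paraxis), which makes somites epithelial, at 1.03 ± 0.06. Foxc2 was at 0.89 ± 0.10 and Eya1 at 0.79 ± 0.14. The summed signal of the 8 genes was 5904 to 6437 in the null channel and 3379 to 3575 in the wild type channel. Another 7 listed genes of somites, Pax1, Pax3, Pax9, Meox2, Tbx18, Myf5 and Tbx22, did not pass the filter. The landmark of dissection was the last somite boundary, and whether different amounts of somite tissue were taken was not tested.

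**Figure D3:**
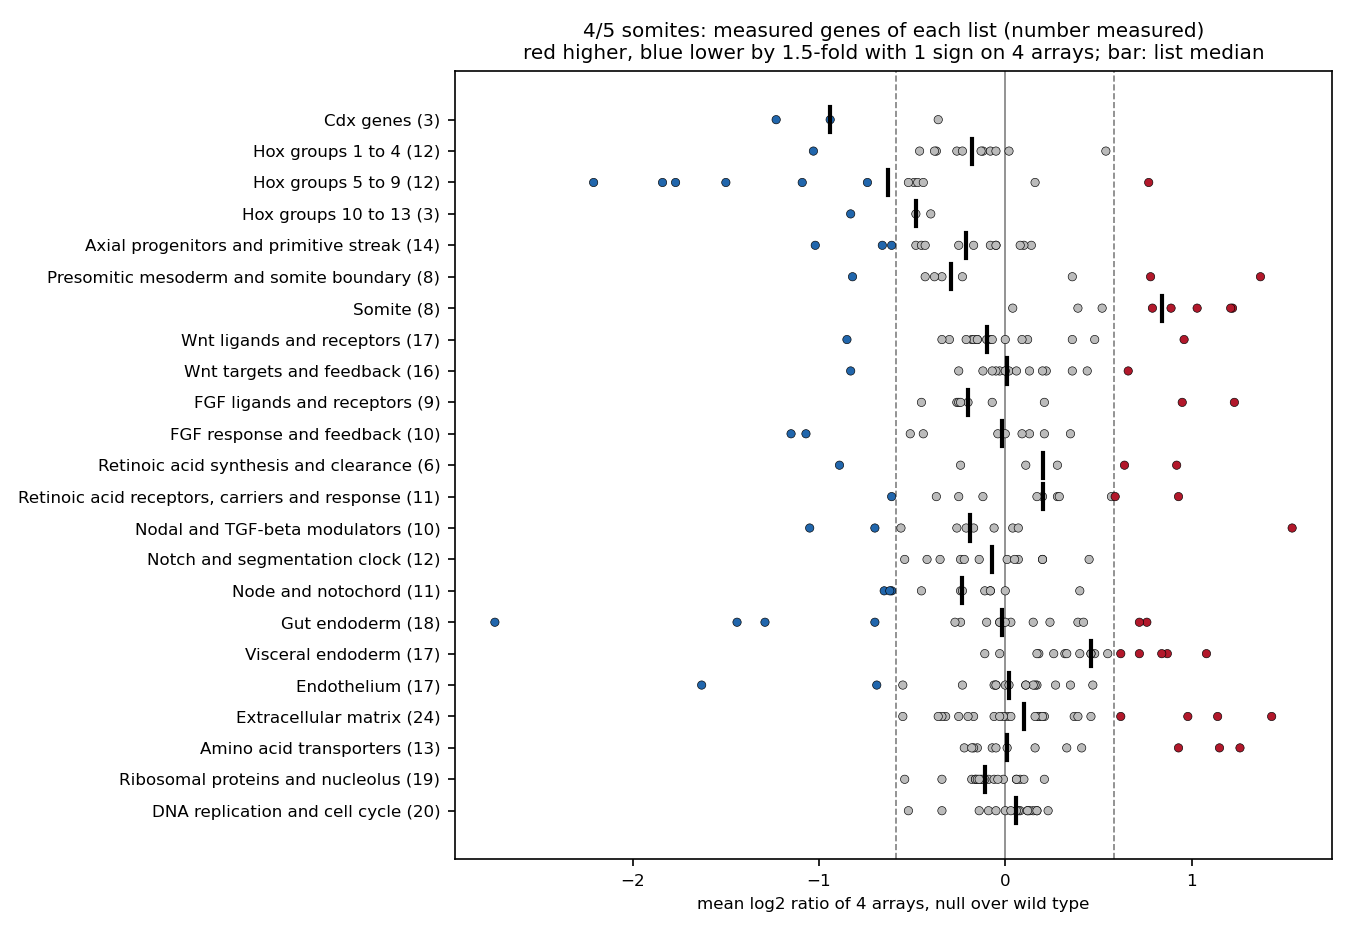
Mean log2 ratio of null over wild type (x axis) of each measured gene in the gene lists shown (y axis, number measured in brackets); red points are at least 1.5-fold higher and blue points lower with 1 sign on 4 arrays, grey points are not called, and the black bar is the list median. The somite list has its median at 0.84 and that of Hox groups 5 to 9 at -0.63. The ribosomal and nucleolar list (median -0.11) and the cell cycle list (median 0.06) have no gene called. Among all measured genes, 1.4% were called higher and 1.03% lower.

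Of 17 measured genes in the list of Wnt ligands and receptors, which does not hold Wnt2, 1 was higher and 1 lower, with a median of -0.10. Wnt5b, a non-canonical ligand gene, read -0.66, -1.0, -0.64 and -1.09 (mean -0.85 ± 0.23), with a second probe at -0.87 ± 0.28. Fzd7, a Wnt receptor gene, read 1.21, 0.86, 0.98 and 0.78 (mean 0.96 ± 0.19). Wnt3a (-0.08), Wnt8a (-0.17) and Wnt5a (-0.18) were not called. Among 16 measured Wnt target and feedback genes the median was 0.01, and the called genes were Rnf43 (-0.83 ± 0.07), which removes Wnt receptors, and Nkd1 (0.66 ± 0.09), a feedback antagonist. The direct target genes Axin2 (0.00), Lef1 (0.02) and Sp5 (-0.25) were not called.

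The list of FGF ligands and receptors, which also holds the gene of the ligand-binding Fgfbp3, had 9 genes measured and 2 higher. These were Fgfbp3 and the receptor Fgfr2 (0.97, 0.88, 1.01 and 0.95, mean 0.95 ± 0.05). The ligands Fgf8, Fgf3, Fgf17, Fgf18 and Fgf15 lay between -0.45 and -0.20 with none called. The other Fgfr2 probe above background read 0.39 ± 0.02. Of 10 FGF response genes, 2 were lower. Dusp4, a phosphatase of MAP kinases, read -1.41, -0.94, -1.23 and -1.02 (mean -1.15 ± 0.21), and its other probe -1.08 ± 0.09. Etv4, an ETS factor gene induced by FGF, was at -1.07 ± 0.47, and its size depended on dye order. Spry2 (0.21), Dusp6 (0.35) and Etv5 (-0.04) were not called, and the list median was -0.02.

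Retinoic acid, made in somites and degraded at the tail end, is opposed to FGF there. Aldh1a2, the enzyme that makes it in mesoderm, read 0.86, 0.94, 0.91 and 0.98 (mean 0.92 ± 0.05), and Rdh10, which makes its precursor, 0.64 ± 0.10. Cyp26a1, the clearing enzyme of the tail bud, read -0.88, -0.88, -0.88 and -0.93 (mean -0.89 ± 0.02). Of the 6 measured genes of synthesis and clearance, 2 were thus higher and 1 lower. Among 11 receptors, carriers and response genes, Rarb, a receptor gene induced by retinoic acid, was higher at 0.93 ± 0.05 and Stra8 at 0.59 ± 0.37, while Crabp1, a binding protein gene, was lower at -0.61 ± 0.26. Stra8 and Crabp1 lost their calls with Cy3 on the null pool alone.

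Nodal antagonists went in different directions. The 2 Lefty genes, next to each other on chromosome 1, were both lower, Lefty1 at -0.87, -1.29, -0.91 and -1.13 (mean -1.05 ± 0.19) and Lefty2 at -0.70 ± 0.09. Their sequences are similar, so cross-hybridization cannot be told apart from a shared difference. Cer1 was higher, and Nodal itself was at 0.04. Of 14 measured BMP ligand and target genes only Msx1, a homeobox gene downstream of BMP, was called, at -0.69 ± 0.04. Its other probe read -0.15 ± 0.08, with the null pool well above background on 2 of the 4 arrays, and averaging the probes, or median centring, ended the call. Bmp4 was at -0.58 and not called. Of 12 Notch and segmentation clock genes none was called, and the largest was Dll3 at -0.54 ± 0.15.

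Endoderm and epithelial genes were lower in some members and higher in others. Of 18 measured gut endoderm genes, 4 were lower (Nepn, Krt19, Sct and the hormone gene Cck at -0.70 ± 0.12) and 2 were higher (Gata6 at 0.76 ± 0.25 and Spink1 at 0.72 ± 0.15). Nepn, Krt19 and Sct are among the 20 largest lower ratios, and the list was chosen with earlier results known. The transcription factor genes Foxa2 (-0.24), Foxa3 (-0.03), Hnf4a (-0.01) and Sox17 (0.39) were not called, and the list median was -0.02. The summed signal of the list was 22520 to 25867 in the null channel and 27005 to 28381 in the wild type channel. The other Gata6 probe above background read -0.03 ± 0.21.

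Of 17 measured visceral endoderm markers, 5 were called higher and none lower, 15 were above 0, and the median was 0.46. Cubn, the endocytic receptor cubilin, read 0.74, 1.42, 0.73 and 1.45 (mean 1.08 ± 0.40), and its partner Amn 0.84 ± 0.08. Apoe, an apolipoprotein gene, was at 0.87 ± 0.06 and Dab2, an endocytic adaptor gene, at 0.62 ± 0.07, with a dimmer probe at 0.26 ± 0.07. The remaining called marker was Spink1 (0.72 ± 0.15), which is also counted in the gut endoderm list. Afp (0.48), Apoa1 (0.46) and Ttr (0.26) were not called. The summed signal of the 17 genes was 72558 to 74809 in the null channel against 47170 to 49178 in the wild type channel, at least 1.51 times on each array. Whether visceral endoderm left on the tissue has a part in the values of other endoderm genes was not tested.

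Most markers of other cell types that the tissue could hold were not called, but the same is true of all measured genes. Of those, 1.4% were called higher and 1.03% lower, and all but 1 of the lists here had 1 or 2 called genes. Among 17 endothelial genes, Vwf and Etv2 (-0.69 ± 0.07) were lower, Kdr was at -0.55, and the median was 0.02. None of 5 measured primitive erythroid genes was called, and Hbb-bh1 was at -0.56 ± 0.13. Of 6 measured trophoblast genes, Rhox6 (0.77 ± 0.19) was higher, and of 4 placental prolactin genes, Prl4a1 (0.94 ± 0.22) was higher. Summed trophoblast signal was 2312 to 2467 in the null channel and 1935 to 2047 in the wild type channel, while 6 of 12 listed trophoblast genes, including Gcm1 and Tpbpa, did not pass the filter. In the surface ectoderm list Krt5 (0.90 ± 0.09) was the 1 gene called of 11, with a list median of 0.23. Among 9 primordial germ cell genes Dppa3 (0.93 ± 0.10) was higher and Ifitm1 (-0.61 ± 0.04) lower.

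In the node and notochord list, 3 of 11 measured genes were lower and none higher, namely Shh (-0.75, -0.56, -0.76 and -0.51, mean -0.65 ± 0.13), T and the ciliary gene Tekt1 (-0.62 ± 0.06). Foxa2, a defining gene of the floor plate and notochord, was at -0.24, and the list median was -0.23. In the neural list, Ncam1 read -0.67 ± 0.25 and Zic1 0.70 ± 0.20, while Sox2 (0.25), Pax6 (0.34) and Sox1 (-0.04) were not called. Zic1 had no array well above background in the wild type channel and was at least 1.49-fold higher in the null pool. Other measured probes of Ncam1 ranged from -0.78 to 0.04. None of 6 neural crest genes was called, and the largest was Sox10 at 0.52 ± 0.18. Osr1, of intermediate mesoderm, was the 1 gene called of 12 in the lateral plate list, at -0.95 ± 0.17.

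In the matrix, adhesion and amino acid transporter lists every called gene was higher, but most members were not called. These lists were chosen with earlier results known, and each holds genes among the 20 largest higher ratios. Over all measured genes 1.4% were called higher and 1.03% lower. Of the matrix genes 10 lay below 0, as did 6 of the amino acid transporter genes, whose median was 0.01. Of 24 measured extracellular matrix genes, 4 were higher and none lower, with Col2a1 at 0.98 ± 0.10 and Col1a1 at 0.62 ± 0.02 beside Col26a1 and Adamts2, and a list median of 0.10. Col1a2, the partner chain of Col1a1, was at -0.55, and the other Col1a1 probe above background read 0.10 ± 0.09. Of 13 amino acid transporter genes 3 were higher, with Slc7a3 at 0.93 ± 0.13. Of 11 keratins and claudins, Krt23 (0.84 ± 0.13) was higher and Krt19 lower. Of 10 allantois genes Snai2 and Ahnak (0.64 ± 0.12) were higher and Cdx4 was lower. Other Ahnak probes above background read from -0.1 to 0.75, and averaging the probes ended its call. Snai2 was also the 1 gene called of 11 in the list of adhesion and epithelial to mesenchymal transition.

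General cellular lists had few called genes, though 14 of the ribosomal and nucleolar genes lay below 0. With 1.4% of all measured genes called higher and 1.03% lower, lists of this size without a called gene are near that share. None of 20 DNA replication and cell cycle genes, of 19 ribosomal and nucleolar genes or of 16 imprinted genes was called, and their medians were 0.06, -0.11 and -0.05. The largest members were Mcm2 (-0.52 ± 0.08), Ncl (-0.54 ± 0.07) and Snrpn (-0.48 ± 0.60). Of 19 glycolysis and hypoxia genes, Eno1 (-0.63 ± 0.46) was lower and Slc2a1 (0.68 ± 0.24) higher, 14 were below 0, and the median was -0.19. Of 13 p53 targets Phlda3 (0.91 ± 0.09) was higher, and of 13 stress genes Atf3 (0.63 ± 0.25). The ribosomal RNA probe Rn18s, named after its values were seen, read -0.46, -0.75, -0.59 and -0.71, and the part of RNA quality or amplification in other values was not tested. Among sex-linked genes Xist was at -0.46 and the Y-linked genes Ddx3y, Kdm5d and Eif2s3y were at 0.20, 0.22 and 0.59. The sex of the pooled embryos is not given, and its part in other values was not tested.

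Dye order set the precision more than repetition did. The median absolute difference between repeat arrays was 0.09 with Cy3 and 0.07 with Cy5 on the null pool, against 0.15 between dye orders. Across genes, which are not independent replicates, r was 0.875 to 0.915 for pairs of arrays with 1 dye order and 0.494 to 0.545 for pairs with dyes swapped. The dye orders differed by at least 1.5-fold for 357 genes (2.42%) and by at least 2-fold for 16. The largest such differences were in Rpl41, which read -0.87 and -0.79 with Cy3 but 0.64 and 0.61 with Cy5, then Gabarapl2, Prpf19, Usp5 and Ogfr. Of these only Prpf19 was called, with -0.31 and -0.43 against -1.79 and -1.65. Of the 60 genes at least 2-fold different, 59 were past 1.5-fold on each array and 32 past 2-fold on each array, and for 5 the dye orders differed by 1.5-fold or more.

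**Figure D4:**
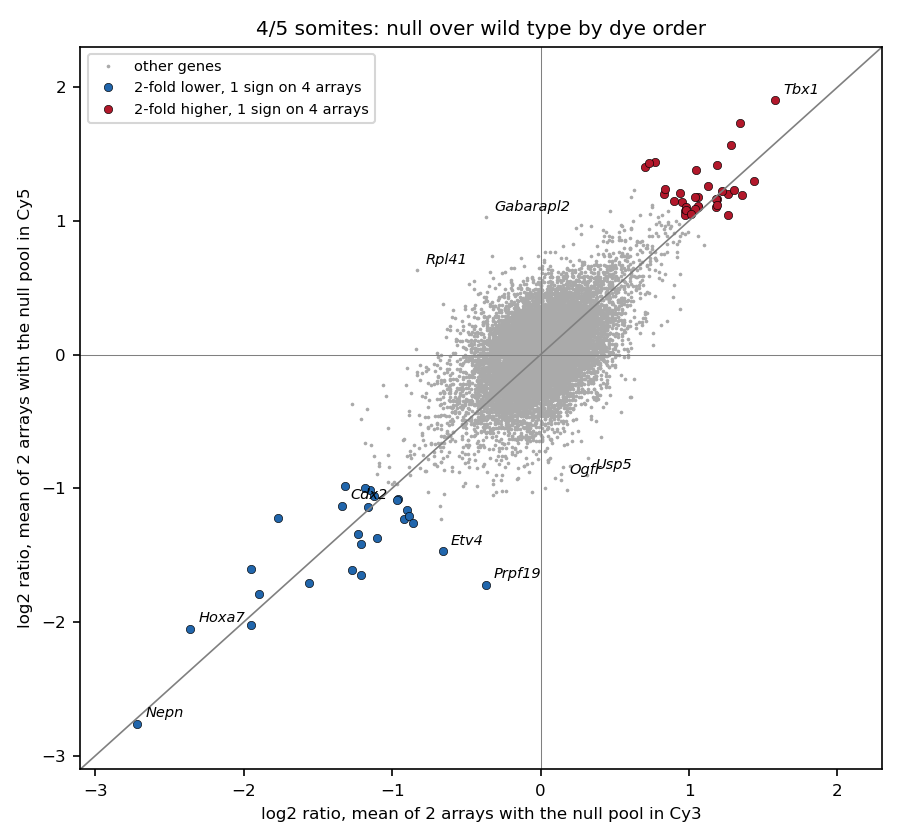
Mean log2 ratio of the 2 arrays with the null pool in Cy5 (y axis) against that of the 2 arrays with it in Cy3 (x axis) for each of 14782 genes; coloured points are the 60 genes at least 2-fold different with 1 sign on 4 arrays. Nepn and Hoxa7 lie near the diagonal, while Prpf19 and Etv4 lie off it and Rpl41 and Gabarapl2 change sign with dye order.

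Other probes gave a second reading for some genes. Among the 60 genes at least 2-fold different, 14 had 15 further probes above background, all 15 with the same sign and 10 past 1.5-fold. Among the 359 genes past 1.5-fold, 112 had 137 further probes, of which 120 (87.6%) had the same sign but 37 (27.0%) passed the same rule. A call near 1.5-fold in the brightest probe was thus often not met by a dimmer one.

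At 7/8 somites the same comparison was made on 4 further arrays from other pools, which were hybridized on the same 2 slides. There 398 of 14445 genes were at least 1.5-fold different either way (2.76%). All 34 genes at least 2-fold higher at 4/5 somites had a mean above 0 at 7/8 somites, 28 of them by 1.5-fold, with medians of 1.11 and 0.99. Of the 26 lower genes 25 were measured at 7/8 somites (Lefty1 was not), all with a mean below 0 and 23 by 1.5-fold, with medians of -1.19 and -1.11. Over all genes 49.2% had a mean above 0 at 7/8 somites. Nepn was at -2.15 ± 0.08 there, Cxcl12 at -2.50 ± 0.21, Cdx2 at -1.55 ± 0.05 and Tbx1 at 1.62 ± 0.07.

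**Figure D5:**
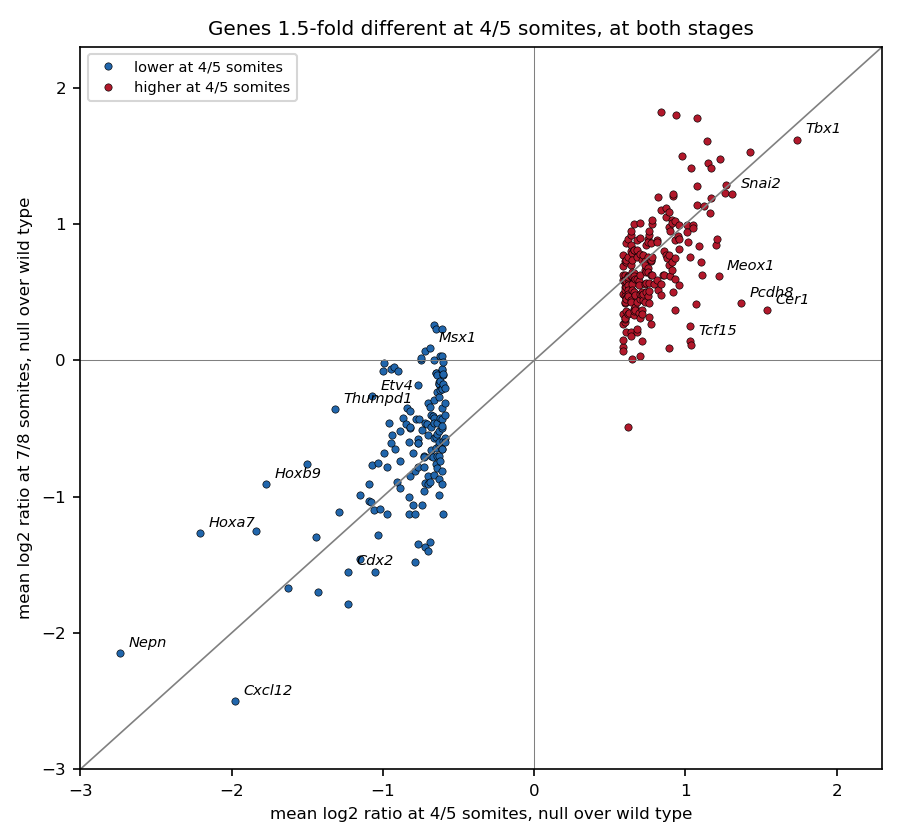
Mean log2 ratio of null over wild type at 7/8 somites (y axis) against that at 4/5 somites (x axis) for the genes called at 1.5-fold at 4/5 somites and measured at both stages; red genes were higher and blue genes lower at 4/5 somites. Most genes keep their side, while Thumpd1, Etv4, Cer1, Pcdh8 and Tcf15 lie nearer to 0 at 7/8 somites.

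Among the genes 1.5-fold higher at 4/5 somites, 206 of 207 had the same direction at 7/8 somites, and the 1 that did not was Dusp16 (0.62 and -0.49), singled out after its value was seen. Of the 151 lower genes measured at both stages, 142 kept their direction. The alpha-defensin genes Defa31, Defa20, Defa3 and Defa5, singled out after their values were seen, were at -0.08, -0.02, -0.05 and 0.0 at 7/8 somites. Several genes of the growth zone and forming somites had smaller ratios at the later stage. T was at -0.07 ± 0.09 there, Evx1 at 0.00 ± 0.04, Msgn1 at -0.37 ± 0.12, Tcf15 at 0.14 ± 0.30, Foxc2 at 0.09 ± 0.11, Pcdh8 at 0.42 ± 0.11 and Cer1 at 0.37 ± 0.09. The somite list had a median of 0.23 at 7/8 somites against 0.84, and the axial progenitor list 0.13 against -0.21. Hoxa7 was at -1.27 ± 0.09 and Hoxb9 at -0.91 ± 0.20, both smaller than at 4/5 somites. Hoxd4 (-1.28 ± 0.29) and Hoxa10 (-1.13 ± 0.09) had larger ratios than at 4/5 somites. The medians of Hox groups 1 to 4, 5 to 9 and 10 to 13 were -0.02, -0.45 and -0.91 at 7/8 somites. At 4/5 somites they were -0.18, -0.63 and -0.48. With 1 pool per genotype and stage these stage differences were not tested.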

How the data were processed

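Spot and local background brightness in the deposited scanner files are intensity values, not normalized, per the file headers. The scanner's processed signals are intensity values after background subtraction and dye normalization, per the file headers, and its log ratio compares Cy5 with Cy3 on the log10 scale. The deposited matrix is on the log10 scale, null over wild type. It matched that log ratio, sign turned for Cy3 on the null pool, at 45018 of 45018 spots on each array (tolerance 1e-05). Agilent Feature Extraction is version 9.5.3 in the submitters' processing notes and 10.5.1.1 in the file headers. The dye of each genotype in the labels gave the direction.

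Mean signals were background-corrected (normexp, offset 50) and each array was normalized by loess in limma 3.58.1 (R 4.3.3), control spots at weight 0. Spots with an uneven background (8 to 55 per array; 1 reached 103636) first received their array's median background. Outlier spots (111 to 179 per array) were left out, and none was saturated. Per channel, 47% to 58.1% of probes were well above background. The number of arrays and of pools limits the precision. The offset shrinks ratios of dim probes, so their folds are understated. Spots were averaged per probe. Names came from RefSeq accessions (GRCm38.p6) for 25263 probes, and otherwise from the files (6233 RefSeq symbols, 1603 synonyms, 8075 neither). Summed list signals add channel values after loess and Aquantile scaling. Normalization was tested on simulated data.

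Arrays 1 and 2 lay on slide 1, arrays 3 and 4 on slide 2. The comparison, gene lists, treatment of uneven backgrounds and rule for named genes were chosen with earlier results of these data known. The rule names the Cdx genes, each measured Hox gene, the 20 largest ratios each way at 2-fold, up to 5 members each way of each list at 1.5-fold (or its largest member), the 5 largest dye differences and 5 genes on each side of Cdx2. Other list members are given as context. Values of some genes are not reported here. Alternatives changed background correction, normalization, filter, choice of probe and set of arrays.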

Additional observations from a re-analysis of the deposited data

Results flagged for a closer look

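Of 137 named genes tested for an array apart from the other 3, 4 had one. Chance gives about 1 in 20 where the 4 values are independent. Arrays of 1 dye order read closer together than arrays with dyes swapped, so that rate need not hold here. Cyp26a1 had array 4 at -0.93 against a mean of -0.89. Flt1 had array 1 at 0.13 against a mean of 0.27. Hoxc4 had array 4 at 0.13 against a mean of -0.08. Lnx2 had array 2 at -0.24 against a mean of -0.13.

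Of the 108 named genes with 1 sign on all 4 arrays at both stages, 3 had opposite signs. Cdx1 was at -0.36 at 4/5 somites and at 0.40 at 7/8 somites. Msx1 was at -0.69 and 0.09, and Ncl at -0.54 and 1.04. These differences between stages were not tested, because each stage had 1 pool per genotype. Other probes of Ncl at 4/5 somites read from -0.54 to 0.23.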

How the results depend on the processing

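No paired analysis was possible because the 4 arrays carried the same 2 pools and no test was made. The 16 alternatives moved counts more than directions. With the scanner software's processed signals 562 genes were 1.5-fold higher and 336 lower (160 and 88 at 2-fold), and in the authors' series matrix 542 and 368 (149 and 94). With uneven backgrounds kept the counts were 133 and 100 (12 and 16 at 2-fold), and with no background correction 15 were higher and 15 lower at 2-fold. With Cy5 on the null pool alone 314 were higher and 280 lower at 1.5-fold, and with Cy3 alone 47.2% of called genes were higher against 57.7% with all arrays. The cause was not tested. Leaving out 1 array gave 191 to 225 higher and 144 to 177 lower, or 27 to 37 and 23 to 28 at 2-fold. The bio1 pair (slide 1) gave 208 and 160, and the tech1 pair (slide 2) 203 and 144. Of 98 named genes called, 71 kept their call in every alternative that gave a value and none reversed. Stra8 and Eif2s3y lost it in 7, Crabp1 in 6 and Atf3 in 5, and Eno1, Ifitm1, Meis2, Meis3, Rdh10 and Tekt1 in 4 each. T, Shh, Ahnak, Col1a1, Gata6, Ncam1 and Zic1 lost it in 3, Cck, Dab2, Hoxa5, Hoxb8, Lefty2, Msx1 and Slc2a1 in 2, and Eya1, Prpf19 and Rhox6 in 1. Sizes of dim probes depended on the background step: Tbx1 ranged from 1.33 to 2.93 and Zic1 from 0.41 to 2.82, while Nepn ranged from -2.97 to -2.53 and Cdx2 from -1.34 to -1.13.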
